A study of Mus musculus with 24 samples.

Results

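The genes described here are 9 mouse members of the Ly6 family that lie in one cluster on chromosome 15, namely Ly6a, Ly6c1, Ly6c2, Ly6d, Ly6e, Ly6f, Ly6g, Ly6k and Slurp1. Array probes were assigned to them when the RefSeq accession that the array design gives a probe belonged to one of these genes. This gave 8 probes for 7 of the 9 genes, of 55681 probes on the array. Ly6c1 had 2 probes and Ly6a, Ly6d, Ly6e, Ly6f, Ly6k and Slurp1 had 1 each, while no probe was matched to Ly6c2 or Ly6g. Members of this family resemble each other in sequence, and a probe for one may also bind the RNA of a relative. The probe sequences were not used here, so this was not tested.

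The samples were cultures of HC11 cells, a line of mouse mammary epithelial cells that derives from the mammary gland of a mid-pregnant Balb/c mouse and that makes milk proteins when given the lactogenic hormones (LH) hydrocortisone, insulin and prolactin. The study altered the level of mPINC, a long noncoding RNA. In the knockdown experiment, cells received 10 nM of a control siRNA (siNEG) or of siRNAs against the splice forms mPINC1.6 and mPINC1.0 (called siPINC1.0/1.6). Others received, at the same dose, siRNAs against these and the DCR2 splice forms (siPINC). Cells were grown without added hormones (−LH, n = 2 cultures per group) or with them (+LH, n = 3 per group). By the study's methods, insulin was in the growth and priming media too, and hormone treatment added prolactin and hydrocortisone. The growth medium held calf serum and epidermal growth factor (EGF), and the hormone medium stripped horse serum without EGF. The sources used here do not say which medium the −LH array cultures had, so +LH against −LH may include a change of medium. In the overexpression experiment, cells carried a lentivirus for green fluorescent protein (LeGO-GFP), for the mPINC1.6 and mPINC1.0 forms together (the LeGO-1.0/1.6 cells), or for a deletion mutant that lacks the conserved terminal exons (LeGO-DCR), and all were given the hormones (n = 3 per group). The lentivirus cells were used as transduced populations, not clones. By the study's methods, transduced cells were expanded and then frozen in aliquots from which experiments were done. Separate transductions for the cultures of a group are not described, so that their spread may not include differences between transductions.

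Ly6 proteins are small and rich in cysteines, and share a finger-like fold that is held together by disulphide bonds. Most of them are tied to the outer face of the cell membrane by a glycosylphosphatidylinositol (GPI) anchor, and a few, such as Slurp1, are secreted. Ly6a is the stem cell antigen Sca-1, which in the mammary epithelium marks mature luminal cells. Ly6c1 is known from endothelial cells, and Ly6d marks early lymphoid and some epithelial cells. Ly6e is a widely expressed member that interferons induce and that modulates virus entry. Slurp1 is a secreted ligand of nicotinic acetylcholine receptors made by keratinocytes. Ly6a and Ly6c1 are also inducible by interferons in several cell types. The functions of Ly6f and Ly6k in the mammary gland are little known.

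The RefSeq promoter table used here held 4 of the 9 genes, Ly6c1, Ly6c2, Ly6f and Ly6g. The 250 bases before the most upstream start of each are shown because Ly6f and the brighter of the 2 Ly6c1 probes moved in the same direction in both mPINC experiments (values below; the dimmer Ly6c1 probe did so only with overexpression), and Ly6c2 and Ly6g are their neighbours without a probe. The sequences run 5′ to 3′ on the strand of the gene, and capitals mark the longest run of letters that all 4 share. They lie in build GRCm38.p6 at chr15:75048838-75049087 on the minus strand for Ly6c1, chr15:75268171-75268420 on the plus strand for Ly6f, chr15:75111972-75112221 on the minus strand for Ly6c2 and chr15:75155011-75155260 on the plus strand for Ly6g.
Ly6c1: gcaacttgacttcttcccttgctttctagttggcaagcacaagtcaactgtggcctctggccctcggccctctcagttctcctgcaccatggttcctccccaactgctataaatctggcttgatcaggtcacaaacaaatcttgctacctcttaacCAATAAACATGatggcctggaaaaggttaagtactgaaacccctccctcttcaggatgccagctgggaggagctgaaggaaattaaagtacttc
Ly6f: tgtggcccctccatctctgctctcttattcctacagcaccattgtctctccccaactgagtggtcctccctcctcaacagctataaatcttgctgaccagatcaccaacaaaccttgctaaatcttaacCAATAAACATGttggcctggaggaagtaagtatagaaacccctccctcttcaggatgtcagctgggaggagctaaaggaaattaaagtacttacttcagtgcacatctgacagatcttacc
Ly6c2: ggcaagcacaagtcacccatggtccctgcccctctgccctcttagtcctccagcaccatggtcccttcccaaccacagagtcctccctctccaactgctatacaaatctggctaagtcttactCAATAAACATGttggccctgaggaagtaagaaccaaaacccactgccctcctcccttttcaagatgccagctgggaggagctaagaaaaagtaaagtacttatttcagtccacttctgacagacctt
Ly6g: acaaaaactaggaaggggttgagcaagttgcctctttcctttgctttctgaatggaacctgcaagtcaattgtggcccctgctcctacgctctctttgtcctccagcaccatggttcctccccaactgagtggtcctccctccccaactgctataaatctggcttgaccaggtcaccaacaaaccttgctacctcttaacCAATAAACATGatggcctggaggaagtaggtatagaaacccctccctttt

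The Ly6c1 and Ly6f sequences were 66.3% identical in a global alignment, against 69.0% for Ly6c2 and Ly6f, the highest of the 6 pairs, 61.0% for Ly6c1 and Ly6c2 and 51.9% for Ly6f and Ly6g, the lowest. The shared run CAATAAACATG was present, on either strand, in 14 of the 32851 promoters of the table (0.0426%) and was found by comparing the 4 genes, so that its presence in them is no result. Motifs were searched on both strands in the 250 bases before and 50 bases after each start. The letters TTCNNNGAA, which STAT factors bind downstream of prolactin and interferons, stood in 8.30% of all promoters, the core of the interferon-stimulated response element (both GAAA repeats) in 3.44% and AGAACA, part of the site of the glucocorticoid receptor, in 19.0%. None of these stood in any of the 7 promoter windows of these 4 genes, which says only that these letters are not within these windows.

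Between 24020 and 35790 probes per array were well above background, and no spot was saturated. The highest count was on LeGO-1.0/1.6 replicate 1 (64.3% of probes), which stood apart from the other arrays. It also had the most outlier spots, 644, where siPINC1.0/1.6 +LH replicate 3 came next with 280. The probe for mPINC read 7.41 and 7.48 (log2 signal) in siNEG −LH cultures, and fell by 1.11 on the log2 scale in siPINC1.0/1.6 cultures (SE 0.11, limma adjusted p = 0.0366). With siPINC it fell by 1.17 (SE 0.11, adjusted p = 0.147). In the +LH siRNA cultures the probe was near background, where only some arrays of each group were well above it. The arrays labelled siPINC1.0/1.6 were not lower than siNEG (log2 fold change 0.19, SE 0.19, adjusted p = 0.713). Those labelled siPINC had a mean of 4.37 against 4.87 in siNEG, with 1 of 3 arrays well above background. This probe therefore did not check the knockdown in +LH cells, and the +LH siRNA groups are named by their labels alone. The paper reports from qPCR that the siRNAs lowered mPINC in HC11 cells, without naming the hormone state of that measurement. The probe was 165-fold higher in LeGO-1.0/1.6 than in LeGO-GFP (log2 fold change 7.37, SE 0.14, adjusted p = 1.04e-07). In LeGO-DCR it was at the LeGO-GFP level (log2 fold change -0.01, SE 0.14). Whether the probe lies in the exons that the mutant lacks was not determined, so its reading does not show whether the mutant was expressed. The paper reports from PCR that LeGO-DCR cells overexpressed the mutant RNA at a high level. The epithelial markers Krt8, Krt18, Krt5, Krt14, Epcam and Cdh1 were well above background on all 24 arrays.

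Levels are given as log2 of the quantile-normalized signal, and probes are compared between groups but not with each other. A probe was called when its limma p-value, adjusted over all 55681 probes, was under 0.05. Ly6a, both Ly6c1 probes, Ly6d, Ly6e and Slurp1 were well above background on all 24 arrays. Ly6f was well above background on 10 arrays, and Ly6k on 6 arrays that were spread over the groups. In such cultures, fewer cells that express a gene and less of its RNA per cell cannot be told apart.

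**Figure D1:**
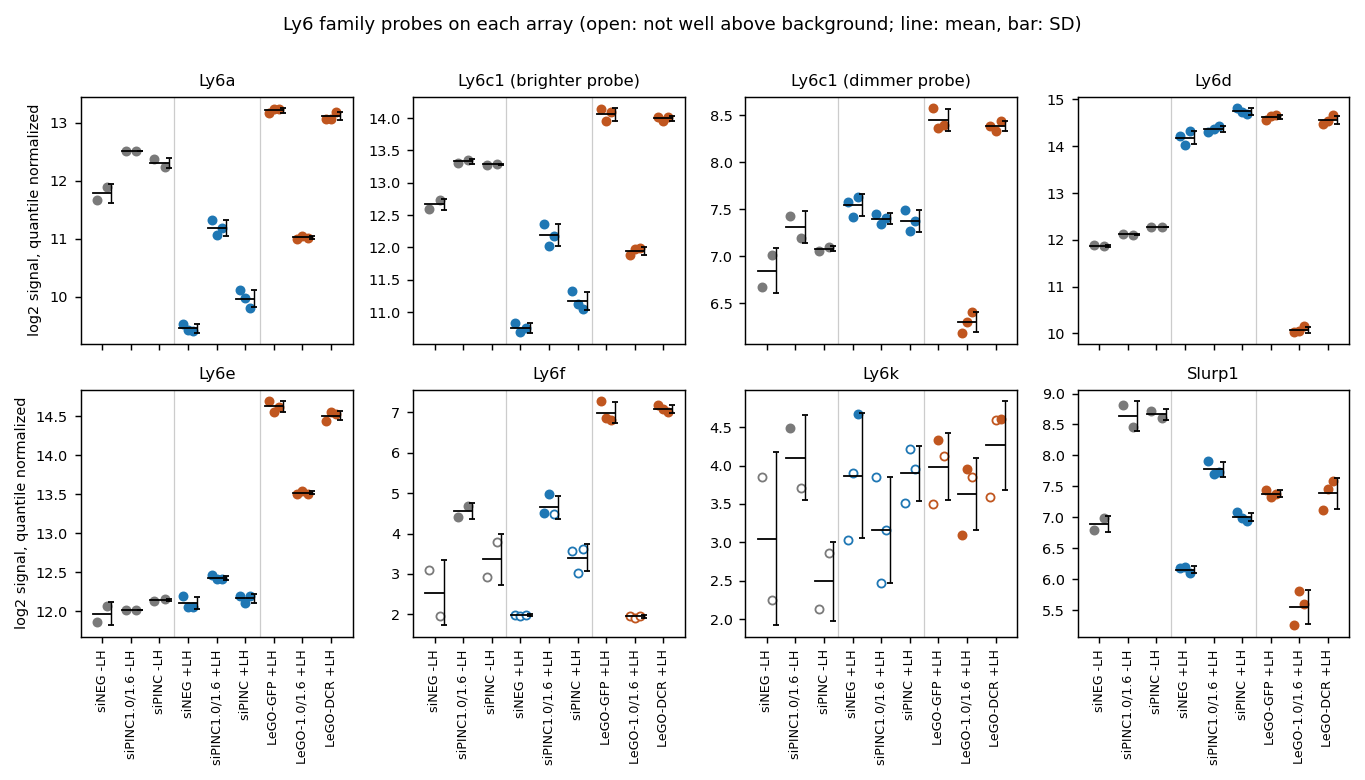
Log2 signal of the 8 Ly6 family probes (vertical axis, a separate range in each panel) on the 24 arrays by group (horizontal axis; grey, siRNA −LH; blue, siRNA +LH; orange, lentivirus +LH). Points are arrays, open where the probe was not well above background, lines are means and bars are SD with n = 2 for −LH and n = 3 for +LH groups. Ly6a and the brighter Ly6c1 probe follow each other, while Ly6d is lowest in LeGO-1.0/1.6, at 10.04 to 10.15.

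Overexpression of mPINC1.0 and mPINC1.6 was accompanied by lower levels of 6 of the 7 measured genes. Against LeGO-GFP, 7 of the 8 probes fell and none rose, all but Ly6k, in a comparison in which 30.3% of all probes were called and 15.8% were called lower. The median log2 fold change of the 8 probes was -2.13, beside -0.01 over all probes.

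Ly6d read 14.57, 14.64 and 14.66 in LeGO-GFP and 10.04, 10.05 and 10.15 in LeGO-1.0/1.6. This was a 23.3-fold lower signal (log2 fold change -4.54, SE 0.07, adjusted p = 4.56e-08), and within the slide that held all 3 LeGO-1.0/1.6 and 2 LeGO-GFP arrays the difference was -4.57. The LeGO-1.0/1.6 cultures, although given hormones, read below every siRNA culture without hormones, where Ly6d was between 11.86 and 12.28. These 2 experiments were not compared by a test.

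Ly6f read 7.28, 6.87 and 6.82 in LeGO-GFP, and 1.96, 1.92 and 1.97 in LeGO-1.0/1.6, where no array had it well above background. The signal was at least 12.1-fold lower, taking for each LeGO-1.0/1.6 array the lowest signal among probes that were well above background, with an adjusted p of 2.62e-07. Ly6f thus went from a dim but measured signal in all 3 control cultures to one that could not be told from background.

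Ly6a read 13.17, 13.24 and 13.24 in LeGO-GFP and 11.00, 11.05 and 11.02 in LeGO-1.0/1.6, which was 4.57-fold lower (log2 fold change -2.19, SE 0.05, adjusted p = 2.25e-07). Both Ly6c1 probes fell alike. The brighter read 14.14, 13.95 and 14.09 in LeGO-GFP and 11.88, 11.98 and 11.99 in LeGO-1.0/1.6 (4.32-fold lower, SE 0.06 on the log2 scale, adjusted p = 6.18e-07), and the dimmer was 4.42-fold lower (SE 0.08, adjusted p = 1.69e-06). No LeGO-1.0/1.6 array reached the lowest LeGO-GFP array for either gene.

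Slurp1 read 7.43, 7.33 and 7.38 in LeGO-GFP and 5.25, 5.81 and 5.59 in LeGO-1.0/1.6, a 3.55-fold lower signal (log2 fold change -1.83, SE 0.17, adjusted p = 0.000115). Ly6e changed least of the genes that fell, from 14.70, 14.56 and 14.62 to 13.51, 13.54 and 13.51 (2.15-fold lower, SE 0.06 on the log2 scale, adjusted p = 5.64e-06). Ly6k lay between 3.09 and 4.33 in both groups, and its difference of -0.36 (95% interval -1.24 to 0.53) did not pass the test (adjusted p = 0.561). With the replicate number as a block it was called (adjusted p = 0.031), although only 1 LeGO-GFP and 2 LeGO-1.0/1.6 arrays had Ly6k well above background.

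The mutant without the terminal exons gave no such change. Against LeGO-GFP, 0 of the 8 probes were called in LeGO-DCR, where limma called 41 of all 55681 probes (0.0736%). Of the 8, 0 had an unadjusted p under 0.05, a count without a share of all probes beside it. The difference was -0.11 for Ly6a (95% interval -0.23 to 0.01), -0.06 for Ly6d (-0.21 to 0.09), -0.12 for Ly6e (-0.25 to 0.01) and 0.09 for Ly6f (-0.20 to 0.39). Set directly against LeGO-DCR, the LeGO-1.0/1.6 cultures were lower in the same 7 probes, with 29.7% of all probes called and 15.1% called lower, which included a 22.3-fold lower Ly6d signal (adjusted p = 4.4e-08). Both comparisons share the LeGO-1.0/1.6 arrays.

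The siRNA cultures with hormones went the other way. With siPINC1.0/1.6, 5 of the 8 probes rose and none fell, where 3.84% of all probes were called and 2.09% were called higher. The median log2 fold change of the 8 probes was 0.87, beside -0.01 over all probes. The comparisons of siPINC1.0/1.6 and of siPINC with siNEG share their control arrays.

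Ly6a, which read 9.54, 9.42 and 9.41 in siNEG +LH, read 11.32, 11.06 and 11.18 with siPINC1.0/1.6 and 10.11, 9.98 and 9.81 with siPINC. No groups overlapped. The rise with siPINC1.0/1.6 was 3.32-fold (log2 fold change 1.73, SE 0.10, adjusted p = 0.000436), while that with siPINC was 1.42-fold and did not pass the test (0.51, SE 0.10, adjusted p = 0.101). The rise with siPINC was called after normexp background correction (adjusted p = 0.0449) and among bright probes alone (0.0278). The difference between the siRNA sets was itself called (log2 1.22, SE 0.10, adjusted p = 0.00655).

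The brighter Ly6c1 probe moved with Ly6a. It read 10.84, 10.69 and 10.75 in siNEG, 12.36, 12.02 and 12.18 with siPINC1.0/1.6 and 11.32, 11.13 and 11.05 with siPINC. The rise with siPINC1.0/1.6 was 2.69-fold (SE 0.11 on the log2 scale, adjusted p = 0.000956). The dimmer Ly6c1 probe disagreed, since it read 7.42 to 7.64 in siNEG and 7.34 to 7.45 with siPINC1.0/1.6 (log2 fold change -0.14, SE 0.08, adjusted p = 0.533), and the groups overlapped. With siPINC the brighter probe's change of 0.41 did not pass the test (SE 0.11, adjusted p = 0.223).

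Slurp1, the secreted member, was called with both siRNA sets. It read 6.18, 6.19 and 6.10 in siNEG, 7.92, 7.70 and 7.72 with siPINC1.0/1.6 and 7.08, 7.0 and 6.94 with siPINC. This was 3.08-fold higher with siPINC1.0/1.6 (SE 0.07 on the log2 scale, adjusted p = 0.000298) and 1.8-fold higher with siPINC (adjusted p = 0.011). The gap between the siRNA sets was called as well (log2 0.77, SE 0.07, adjusted p = 0.00925).

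Ly6f was not well above background in siNEG +LH, at 1.99, 1.96 and 1.99, and read 4.5, 4.98 and 4.47 with siPINC1.0/1.6, where 2 of 3 arrays were well above background. It was at least 1.21-fold higher (adjusted p = 0.000885). With siPINC it read 3.56, 3.03 and 3.63, above siNEG but with no array well above background, so that no fold is given although the probe was called (adjusted p = 0.0342). Ly6e rose 1.25-fold with siPINC1.0/1.6 (log2 fold change 0.32, SE 0.06, adjusted p = 0.032), from 12.20, 12.06 and 12.06 to 12.46, 12.41 and 12.41, and differed by 0.06 with siPINC (95% interval -0.08 to 0.20). Leaving out either siNEG replicate 2 or 3, any siPINC1.0/1.6 replicate, or siPINC replicate 1 or 3 ended the call of Ly6e, with an adjusted p of up to 0.115. So did scaling to the 75th percentile (adjusted p = 0.141), the deposited log2 values (0.0909), the replicate block (0.0796) and the methods' t-test (0.0992).

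Ly6d did not follow the others. It read 14.21, 14.03 and 14.32 in siNEG +LH, 14.30, 14.36 and 14.43 with siPINC1.0/1.6, which overlapped siNEG (log2 fold change 0.18, SE 0.09, adjusted p = 0.422), and 14.82, 14.73 and 14.68 with siPINC. The 1.47-fold rise with siPINC was only just past the threshold (SE 0.09 on the log2 scale, adjusted p = 0.0499). Leaving out any 1 of the 9 arrays ended that call, with an adjusted p between 0.0557 and 0.175. In all, siPINC raised 3 of the 8 probes, Ly6d, Ly6f and Slurp1, where 0.681% of all probes were called and 0.551% were called higher. The siPINC1.0/1.6 cultures were above the siPINC cultures in 4 of the 8 probes, Ly6a, the brighter Ly6c1 probe, Ly6f and Slurp1, where 0.914% of all probes were called and 0.442% were called higher. The call of Ly6f (adjusted p = 0.042) ended when any 1 of the 9 arrays was left out (0.0743 to 0.118) and under each other alternative in which it was tested (0.0664 to 0.237), and the dimmer Ly6c1 probe differed by 0.02. The call of the brighter Ly6c1 probe ended without siPINC +LH replicate 3 (adjusted p = 0.0584).

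In these +LH cultures, siNEG replicate 1 lay on another slide than the rest. Within the slide that held the others, the differences with siPINC1.0/1.6 were 1.77 for Ly6a, 1.47 for the brighter Ly6c1 probe, 0.37 for Ly6e, 2.67 for Ly6f and 1.63 for Slurp1, and with the slide as a term of the fit all 5 were called (adjusted p between 0.00211 and 0.0327). With siPINC, the slide term kept the call of Slurp1 (0.86, adjusted p = 0.04), and Ly6d and Ly6f were not called (adjusted p = 0.149 and 0.112).

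**Figure D2:**
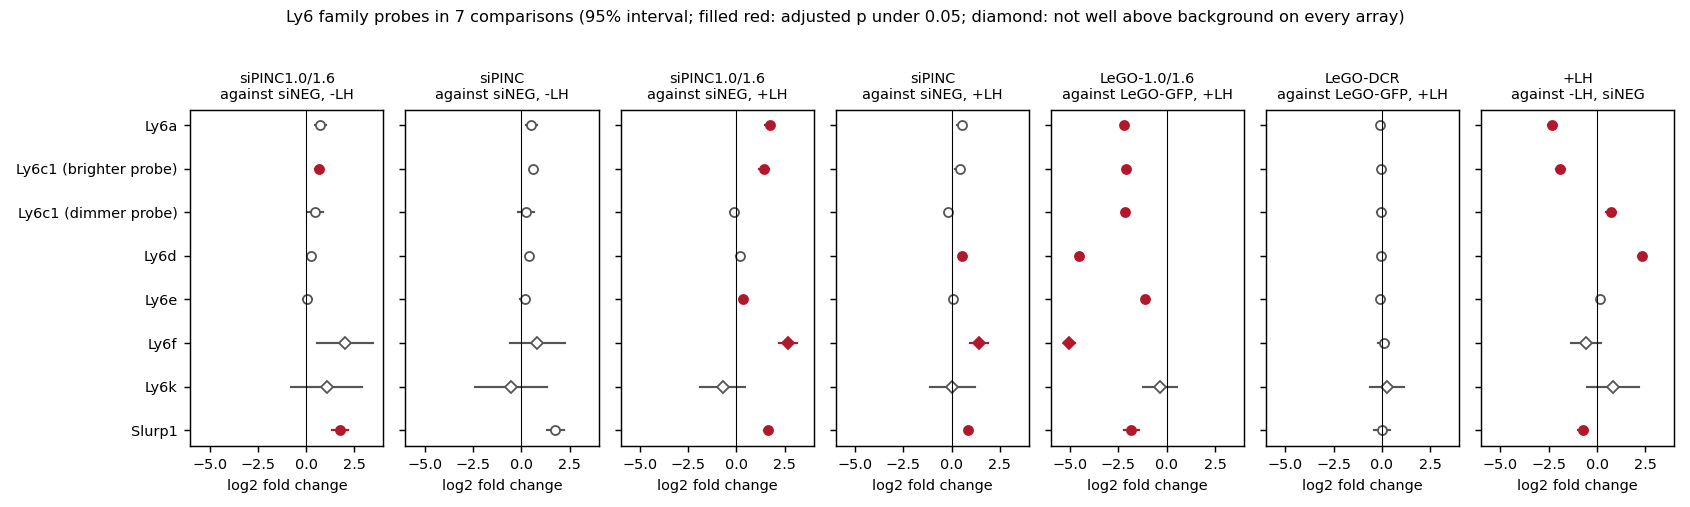
Log2 fold change of the 8 probes (rows) in 7 comparisons (panels), with bars for 95% intervals. Red filled symbols were called at an adjusted p under 0.05, and diamonds mark probes that were not well above background on every array of both groups. In LeGO-1.0/1.6 the called probes lie left of 0, from -1.11 for Ly6e to -4.54 for Ly6d among those measured in both groups, and with siPINC1.0/1.6 +LH they lie right of 0.

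In cells without hormones (n = 2 per group), 2 of the 8 probes rose with siPINC1.0/1.6 and none fell, where 2.96% of all probes were called and 1.52% were called higher. Slurp1 read 6.80 and 6.99 in siNEG, 8.81 and 8.46 with siPINC1.0/1.6 and 8.72 and 8.60 with siPINC. The rise with siPINC1.0/1.6 was 3.34-fold (log2 fold change 1.74, SE 0.15, adjusted p = 0.0339), and that with siPINC was of the same size, 3.40-fold, without passing the test (adjusted p = 0.139). The siRNA sets differed by -0.03 (95% interval -0.45 to 0.39).

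The brighter Ly6c1 probe read 12.60 and 12.73 in siNEG, 13.30 and 13.36 with siPINC1.0/1.6 (1.59-fold, SE 0.07 on the log2 scale, adjusted p = 0.0394) and 13.28 and 13.29 with siPINC (adjusted p = 0.178). Ly6a read 11.67 and 11.90 in siNEG, 12.51 and 12.52 with siPINC1.0/1.6 (1.66-fold, adjusted p = 0.0538) and 12.37 and 12.24 with siPINC. The groups did not overlap for either gene. Leaving out any 1 of the 6 arrays ended both calls with siPINC1.0/1.6 (Slurp1 adjusted p between 0.08 and 0.104, Ly6c1 between 0.0985 and 0.14).

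With siPINC −LH, limma called 0 of the 8 probes and 0 of all 55681 (0.0%). Of the 8, 4 had an unadjusted p under 0.05, a count without a share of all probes beside it. At the looser rule of a fold over 1.8 and an unadjusted p under 0.01, Slurp1 alone was called with siPINC1.0/1.6 (2.39% of all probes) and with siPINC (0.995%). Between the siRNA sets −LH, 0 of the 8 probes were called, and 0.018% of all probes. Here 1 of the 8 had an unadjusted p under 0.05, again without a share of all probes at that threshold.

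Between +LH and −LH cultures, which may also differ in medium, the members moved in opposite directions. In siNEG cultures, Ly6a, the brighter Ly6c1 probe and Slurp1 fell with the hormones, and Ly6d and the dimmer Ly6c1 probe rose, where 27.1% of all probes were called, 13.5% higher and 13.6% lower. Ly6d was 4.97-fold higher with hormones (log2 fold change 2.31, SE 0.08, adjusted p = 8.03e-09), from 11.88 and 11.86 without them to 14.21, 14.03 and 14.32 with them. Ly6a was 5.03-fold lower (log2 fold change -2.33, SE 0.11, adjusted p = 4.82e-08). The brighter Ly6c1 probe was 3.75-fold lower (adjusted p = 1.93e-07) and Slurp1 1.67-fold lower (adjusted p = 0.000399).

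The dimmer Ly6c1 probe was 1.62-fold higher (log2 fold change 0.70, SE 0.12, adjusted p = 0.000839), opposite to the brighter probe of the same gene. It read 6.68 and 7.02 without hormones and 7.58, 7.42 and 7.64 with them. A direction of Ly6c1 with hormones therefore rests on the brighter probe. Ly6e differed by 0.14 (95% interval -0.02 to 0.30) and did not pass the test (adjusted p = 0.202), and Ly6f was not well above background in either group. Leaving out siNEG −LH replicate 2 brought both past the threshold, Ly6e at an adjusted p of 0.0462 and Ly6f at 0.0454.

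All −LH arrays lay on 1 slide, and among the +LH siRNA arrays only siNEG replicate 1 lay there too. Within that slide, 1 +LH against 2 −LH siNEG arrays, the difference was -2.25 for Ly6a, -1.83 for the brighter Ly6c1 probe, 2.34 for Ly6d and -0.72 for Slurp1. With siPINC1.0/1.6 and siPINC the hormones were compared across slides only. There Ly6d rose 4.74-fold and 5.51-fold, and Ly6a fell 2.51-fold and 5.07-fold, with 5 of 8 probes called with siPINC1.0/1.6 (29.8% of all) and 4 of 8 with siPINC (28.0% of all). With the slide as a term, the log2 difference of Ly6a was -1.21 and -2.22 (adjusted p = 0.00108 and 2.88e-05). That term was estimated only from siNEG +LH replicate 1 against the other siNEG +LH replicates. It thus rests on 1 array and cannot fully separate slide from hormones in the knockdown groups.

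The effect of siPINC1.0/1.6 differed between hormone states for Ly6a and the brighter Ly6c1 probe, 2 of the 8 probes, where 3.19% of all probes were called for this interaction and 2.08% were called higher. The log2 difference of siPINC1.0/1.6 against siNEG was 0.73 without hormones and 1.73 with them for Ly6a, and the gap was 1.00 (SE 0.15, adjusted p = 0.00516). For the brighter Ly6c1 probe the gap was 0.76 (SE 0.15, adjusted p = 0.0196), and leaving out siNEG −LH replicate 2, siPINC1.0/1.6 −LH replicate 1 or siNEG +LH replicate 2 ended that call (adjusted p of up to 0.0778). Without siNEG −LH replicate 2 the dimmer Ly6c1 probe was called in the opposite direction (adjusted p = 0.0352), as it was among bright probes alone (adjusted p = 0.0387). With siPINC, 1 of the 8 probes was called, Slurp1, where 0.503% of all probes were called and 0.138% lower. Its rise with siPINC was smaller with hormones by 0.92 on the log2 scale (SE 0.16, adjusted p = 0.0387), a call that ended when any of 11 of the 15 arrays was left out (adjusted p of up to 0.0962).

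Over the 9 groups, Ly6a was highest in LeGO-GFP and LeGO-DCR, which overlapped, then in siPINC1.0/1.6, siPINC and siNEG −LH, which did not overlap each other. Next came siPINC1.0/1.6 +LH (11.06 to 11.32) and LeGO-1.0/1.6 (11.00 to 11.05), which nearly touched, and last siPINC +LH (9.81 to 10.11) and siNEG +LH (9.41 to 9.54). Ly6d was highest in siPINC +LH (14.68 to 14.82), followed by LeGO-GFP and LeGO-DCR, which overlapped, and by siPINC1.0/1.6 and siNEG +LH, which overlapped too. The −LH groups stood lower, each apart from the next, and LeGO-1.0/1.6 stood lowest. The lentivirus and siRNA arrays lay on different slides but for LeGO-GFP replicate 1, and orders across the experiments are descriptive.

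As a description over these 9 group means, which share arrays, slides and normalization, the group means of Ly6a and the brighter Ly6c1 probe had a Pearson r of 0.998. It was the highest among 13908 genes whose probe was well above background throughout 1 or more groups. Behind it came Tex19.1 (0.988), Angptl4 (0.972), Tbc1d7 (0.951) and Pla2g2f (0.948). The dimmer Ly6c1 probe had an r of 0.43 with Ly6a and 0.48 with the brighter Ly6c1 probe. Whether the probes of Ly6a and Ly6c1 bind each other's RNA was not tested. The r of Ly6d with Ly6a was -0.05, and the genes most like Ly6d were Kcnq1 (0.997), Rassf7 (0.995), Dhrs1 (0.993), Akap6 (0.991) and Nrep (0.990). Ly6f had an r of 0.75 with Ly6a and 0.57 with Ly6d, and Slurp1 of 0.56 and 0.18.

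Other genes of the same stretch of chromosome 15 did not all share these changes. Of all probes, limma called 14.5% higher and 15.8% lower in LeGO-1.0/1.6, and 2.09% and 1.75% with siPINC1.0/1.6 +LH. With hormones in siNEG these shares were 13.5% and 13.6%, and with siPINC +LH 0.551% were higher. With siPINC1.0/1.6 −LH, 2.96% were called in either direction. Counts of listed genes, here and below, that lie near these shares are no result about a list. Of 13 further Ly6/uPAR genes of the cluster, 10 had a probe, 5 of them well above background on all arrays. With siPINC1.0/1.6 +LH, limma called 0 of these 10, and their median log2 fold change was 0.03. Of the 10, 2 had an unadjusted p under 0.05, a count without a share of all probes beside it. In LeGO-1.0/1.6, 2 of the 10 fell, Lynx1, a membrane-bound modulator of nicotinic receptors (log2 fold change -1.07, SE 0.06, adjusted p = 8.07e-06), and Psca, prostate stem cell antigen (-0.93, SE 0.28, adjusted p = 0.0399), and their median was -0.05. The probe for Ly6i, which lies between Ly6e and Ly6a, read -0.09 with siPINC1.0/1.6 (SE 0.18) and -0.27 in LeGO-1.0/1.6 (SE 0.40). Since the 9 members were chosen with results of these data known, these counts are not independent evidence of a difference between the groups of genes.

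Of 26 genes of other kinds beside or within the cluster, 20 were measured. With siPINC1.0/1.6 +LH, 2 rose, Arc (log2 fold change 1.38, SE 0.15, adjusted p = 0.00454), an immediate early gene of neurons, and Top1mt (0.26, SE 0.05, adjusted p = 0.0497), the mitochondrial topoisomerase, and none fell. In LeGO-1.0/1.6, 5 rose and 4 fell, where 14.5% of all probes were called higher and 15.8% lower. Those that fell were Slc45a4 (-1.27, SE 0.08) and Jrk (-1.19, SE 0.07), measured in both groups, and Gpr20 (at least 1.93-fold lower) and Tigd5 (at least 2.55-fold lower), which no LeGO-1.0/1.6 array had well above background. Mroh4, which lies beside Arc and was not in that list, is named after its values were seen. It was -1.03 in LeGO-1.0/1.6 (SE 0.12, adjusted p = 0.000498), 1.40 with siPINC1.0/1.6 +LH (SE 0.30, adjusted p = 0.0544) and -4.17 with hormones in siNEG (SE 0.29, adjusted p = 1.14e-06). Of 25 Ly6/uPAR genes on other chromosomes, 24 were measured, of which 3 rose and none fell with siPINC1.0/1.6 +LH, led by Plaur, the urokinase receptor (1.21, SE 0.11, adjusted p = 0.00225), and Ly6g6c (0.88, SE 0.12, adjusted p = 0.00976). In LeGO-1.0/1.6, 2 of these rose and 5 fell, led by Lypd6b (4.02, SE 0.14) and Ly6g6e (-3.81, SE 0.17, well above background on 1 of 3 LeGO-1.0/1.6 arrays).

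**Figure D3:**
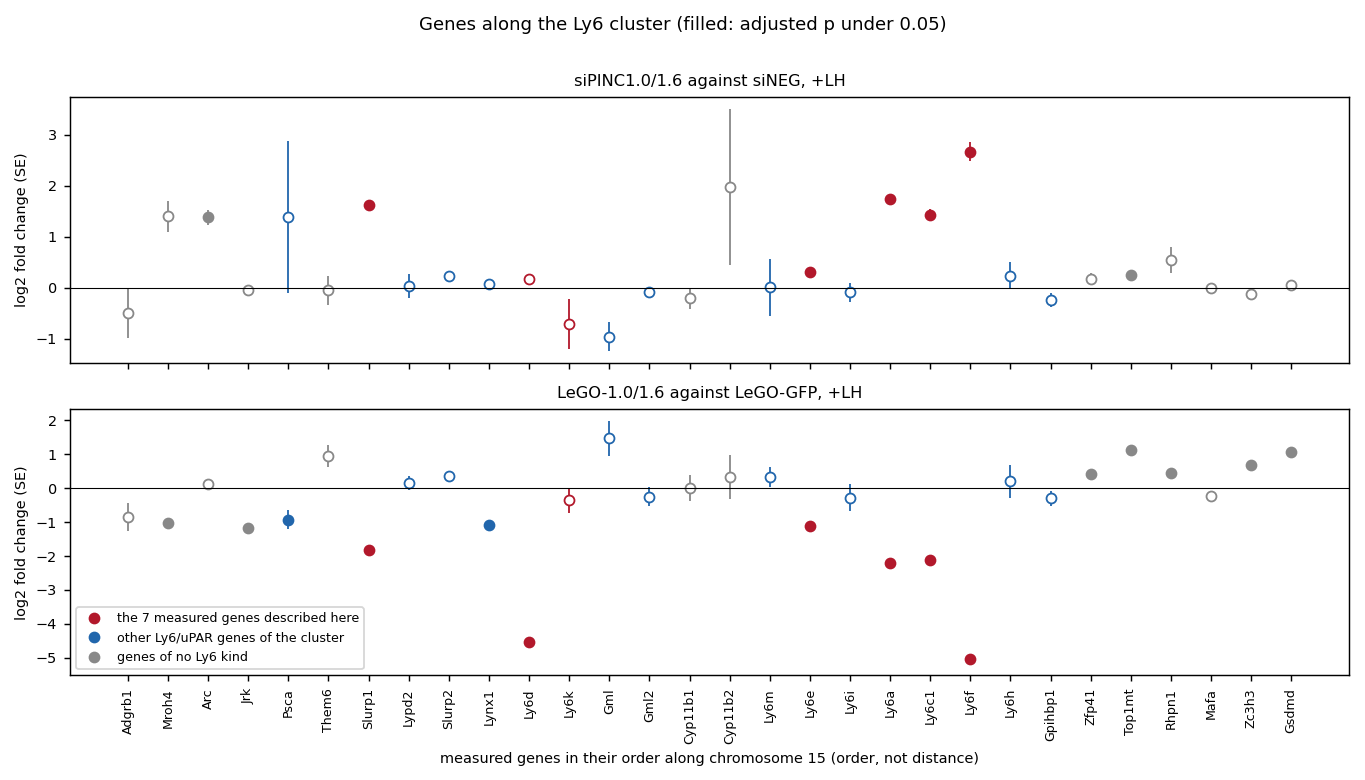
Log2 fold change (vertical axis, bars are SE) of 30 measured genes in their order along chromosome 15 (horizontal axis, without distances), with siPINC1.0/1.6 against siNEG +LH above and LeGO-1.0/1.6 against LeGO-GFP below. Filled points were called at an adjusted p under 0.05, and red, blue and grey mark the 7 measured members, other Ly6/uPAR genes and other genes. The called members lie among genes of the cluster that were not called, such as Ly6i, Gml2 and Gpihbp1.

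Interferon-stimulated genes moved with the members in some comparisons and not in others. With siPINC1.0/1.6 +LH, 20 of 25 measured interferon-stimulated genes rose and none fell (median log2 fold change 0.97), led by Oasl1 (1.77, SE 0.11, adjusted p = 0.000524) and Oas2 (1.59, SE 0.22, adjusted p = 0.012), and the list's summed level was 16.35 to 16.60 against 15.30 to 15.68 in siNEG. With siPINC +LH, 1 of the 25 rose by the adjusted p, while the list's summed level was 15.96 to 16.15, above the siNEG range. The low count there does not show that the list stayed level. In siPINC1.0/1.6 −LH, where the brighter Ly6c1 probe and Slurp1 rose, 4 of the 25 fell and none rose (median -0.58). In LeGO-1.0/1.6, where 7 member probes fell, 16 of the 25 rose and 3 fell (median 0.80), led by Rsad2 (3.33, SE 0.17) and Cxcl10 (2.86, SE 0.15). With hormones in siNEG, where Ly6a and the brighter Ly6c1 probe fell, 16 rose and 4 fell. The part of interferon-stimulated expression in the levels of the members was not tested.

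Markers of differentiation also moved, in LeGO-1.0/1.6 beside 14.5% of all probes called higher and 15.8% called lower. Milk and lactogenic genes fell in LeGO-1.0/1.6 in 5 of 8 cases and rose in none, led by Ltf, lactoferrin (-4.31, SE 0.06), and Csn2, beta-casein (at least 6.75-fold lower), and 3 of the 8 rose with hormones in siNEG. Csn2 fell with siPINC1.0/1.6 +LH (-1.20, SE 0.17, adjusted p = 0.0128) and Ltf rose (1.10, SE 0.09, adjusted p = 0.00122). Of 7 luminal progenitor markers, 3 fell in LeGO-1.0/1.6, led by Elf5 (-5.47, SE 0.14) and Kit (-4.62, SE 0.09), and 2 rose. Of the 7, 2 fell and 1 rose with siPINC1.0/1.6 +LH, led by Kit (-0.99, SE 0.09, adjusted p = 0.00253) and Itgb3 (0.37, SE 0.05, adjusted p = 0.00984). Of 9 mature luminal markers, the cell type that Ly6a marks, 4 rose in LeGO-1.0/1.6, where Ly6a fell, led by Areg (4.95, SE 0.12) and Foxa1 (at least 1.64-fold higher), and 2 fell. With siPINC1.0/1.6 +LH, where Ly6a rose, 1 of the 9 rose and none fell, Wnt4 (1.13, SE 0.12, adjusted p = 0.0047).

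Squamous differentiation genes, which keratinocytes express beside Slurp1 and Ly6d, numbered 17 measured. Of these, 6 rose and none fell with siPINC1.0/1.6 +LH, led by Krt6b (3.14, SE 0.09) and Sprr1a (2.08, SE 0.18), while 7 rose and 7 fell in LeGO-1.0/1.6, led by Krt15 (-9.64, SE 0.49, well above background on 2 of 3 LeGO-1.0/1.6 arrays) and Sprr2h (at least 49.5-fold higher). Of 13 genes that make or attach GPI anchors, 1 rose and none fell with siPINC1.0/1.6 +LH, Pgap2 (0.54, SE 0.10, adjusted p = 0.0322). In LeGO-1.0/1.6, 4 of the 13 rose and 2 fell, led by Pgap3 (-1.0, SE 0.07) and Piga (0.86, SE 0.06). There 14.5% of all probes were called higher and 15.8% lower.

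Since several Ly6 antigens mark blood and stromal cells, markers of those cells were read too. In LeGO-1.0/1.6, 14.5% of all probes were called higher and 15.8% lower. Of 15 measured leukocyte markers, 4 were well above background on all 24 arrays, Cd3e, Itgam, Csf1r and Elane. Another 4 were so on no array, Cd3d, Ms4a1, Itgax and Spi1. The list's summed level was 13.59 to 13.70 in LeGO-1.0/1.6 against 12.02 to 12.50 in LeGO-GFP. There 2 markers rose, S100a8 (6.54, SE 0.11) and S100a9 (6.4, SE 0.35), which epithelial cells can also make, and 2 fell. Of 8 fibroblast and endothelial markers, 3 were well above background on all 24 arrays, Col3a1, Pdgfra and Kdr. In LeGO-1.0/1.6, 2 of the 8 fell, Dcn (-4.62, SE 0.11) and Col3a1 (-4.12, SE 0.17), and 1 rose. The summed level was 11.62 to 11.82 against 13.85 to 14.16. Of the 6 epithelial markers, 5 fell in LeGO-1.0/1.6 and none rose, led by Krt5 (-2.76, SE 0.08) and Krt14 (-1.78, SE 0.05), with a summed level of 15.51 to 15.60 against 16.61 to 16.66. Where 5 member probes rose, with siPINC1.0/1.6 +LH, 1 of the 15 leukocyte markers rose and none fell, S100a9 (at least 1.33-fold higher, adjusted p = 0.0482), with a summed level of 11.99 to 12.06 against 12.33 to 12.48 in siNEG. Of the 8 fibroblast and endothelial markers Col3a1 rose there (0.99, SE 0.18, adjusted p = 0.0337) and Pdgfra fell (-0.45, SE 0.06, adjusted p = 0.00907), at 12.85 to 13.04 against 12.65 to 12.86. Of the 6 epithelial markers 2 rose and 1 fell, led by Krt5 (0.59, SE 0.07, adjusted p = 0.00681) and Krt18 (-0.56, SE 0.06, adjusted p = 0.00568), at 16.75 to 16.79 against 16.54 to 16.73. The part of these changes in the levels of the members was not tested.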

How the data were processed

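Expression was measured on 24 one-colour Agilent arrays. The authors deposited, per the file headers, Feature Extraction intensity values (processed signal, corrected for background within each array, and median signals) with marks for spots well above background, and a matrix of log2 signals after their own quantile normalization. Depth here is signal over background, and the number of arrays limits the precision. Members and gene lists were chosen with earlier results of these data known.

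Log2 processed signals of 59305 spots that are not controls were quantile normalized, outlier spots left out (none was a member's), and spots averaged to 55681 probes, of which 26582 had a symbol through RefSeq accessions. Dim probes were kept. Groups were compared with limma 3.58.1 in R 4.3.3, in separate fits for the −LH siRNA (6 arrays), +LH siRNA (9) and lentivirus arrays (9), with all 15 siRNA arrays for hormones and interactions, and Benjamini-Hochberg adjustment over all probes. The script was tested on simulated data. Of a gene's probes the brightest stood for it in gene lists, and of each list the 2 called genes with the largest change are named, in siPINC1.0/1.6 +LH and LeGO-1.0/1.6. All members are named, with the 5 genes most like Ly6a and Ly6d. Replicates were biological replicates in the study's methods, and their numbers came from the labels. Same-numbered arrays did not deviate together throughout (correlations from -0.20 to 0.16), so that no pairing was assumed. Sequences came from RefSeq (GRCm38.p6). Alternatives were scaling to the 75th percentile, normexp background correction (offset 50), the deposited log2 values, bright probes alone, a slide term, a replicate block, the methods' t-test, and leaving out each array. Tables used pandas 2.3.3 and numpy 2.4.6, and figures matplotlib 3.10.9.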

Additional observations from a re-analysis of the deposited data

Results flagged for a closer look

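The effect of an siRNA differed between hormone states in 3 cases, each by an interaction term over the 15 siRNA arrays in limma. The difference of siPINC1.0/1.6 against siNEG was larger with hormones than without by 1.00 on the log2 scale for Ly6a (SE 0.15, adjusted p = 0.00516) and by 0.76 for the brighter Ly6c1 probe (SE 0.15, adjusted p = 0.0196). For Slurp1, the difference of siPINC against siNEG was smaller with hormones, by -0.92 (SE 0.16, adjusted p = 0.0387). In each case siNEG, the shared control, was itself lower with hormones, and the −LH and +LH arrays of the knockdown groups lay on different slides.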

How the results depend on the processing

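No result changed its direction among called values under any alternative. The counts of called member probes in LeGO-1.0/1.6 against LeGO-GFP and against LeGO-DCR (7 each) were 8 with the replicate block, which added Ly6k (adjusted p = 0.031 and 0.00398), and 7 under the other alternatives with all arrays. In LeGO-DCR against LeGO-GFP the count was 0 throughout. With siPINC1.0/1.6 −LH, 2 probes were called, against 0 after scaling to the 75th percentile, 5 after normexp, 0 with the deposited log2 values, 4 among bright probes alone, 0 with the replicate block, 0 by the methods' t-test after adjustment, and 0 to 0 with 1 array left out. With siPINC −LH, normexp gave 3 in place of 0. With siPINC +LH, 3 were called, against 1 after scaling to the 75th percentile, 0 with the deposited log2 values, 1 with the slide term, 0 with the replicate block, 0 by the t-test, and 1 to 2 with 1 array left out. Normexp (adjusted p = 0.0449) and bright probes alone (0.0278), which leave out Ly6f, called Ly6a, and normexp did not call Ly6f (0.57). Between siPINC1.0/1.6 and siPINC +LH, 4 were called, against 2 with the deposited log2 values, 0 with the replicate block, 0 by the t-test, and 2 to 3 with 1 array left out. Scaling to the 75th percentile, normexp and the slide term ended the call of Ly6f alone. Bright probes alone, which leave out Ly6f, added Ly6d, lower (-0.38, adjusted p = 0.0421), and Ly6e, higher (0.26, adjusted p = 0.0436). The interaction with siPINC1.0/1.6 gave 2, against 1 after scaling to the 75th percentile, 1 with the deposited log2 values, and 1 to 2 with 1 array left out. Bright probes alone added the dimmer Ly6c1 probe in the opposite direction (-0.61, adjusted p = 0.0387). That with siPINC gave 1, against 0 after scaling to the 75th percentile, 0 with the deposited log2 values, 0 with the slide term, 0 with the replicate block, and 0 to 1 with 1 array left out. With siPINC1.0/1.6 +LH, 5 were called, against 4 after scaling to the 75th percentile, with the deposited log2 values, with the replicate block and by the t-test, each time without Ly6e, 4 among bright probes alone, which leave out Ly6f, and 4 to 5 with 1 array left out, and for hormones in siNEG 5 to 7 of 5. The t-test ended the hormone call of the dimmer Ly6c1 probe in siNEG (adjusted p = 0.0909) and of Slurp1 with siPINC1.0/1.6 (0.0539). Scaling to the 75th percentile ended that of Ly6e with siPINC1.0/1.6 (0.18). Bright probes alone added the dimmer Ly6c1 probe for hormones with siPINC (0.042). For single probes, 1114 of 1176 results with 1 array left out kept their side of the threshold, 59 lost their call and 3 gained one. Under the other alternatives this was 663, 48 and 16 of 727. Leaving out 1 of 2 arrays of a group assumes that the lone array varies like the other groups. The replicate numbers were labels without a known pairing, and the cause of these changes was not tested. Signals near background limit Ly6f and Ly6k. The t-test was not run for interactions, and normexp used median signals.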
